A study of Mus musculus with 8 samples.

Results

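The cytochrome P450 genes of families 1 to 4 are the mouse genes for the enzymes that oxidise drugs, fatty acids and steroids at the membrane of the endoplasmic reticulum. They were taken as every gene whose symbol reads Cyp, a family number from 1 to 4, a subfamily letter and a gene number. The rule gave 75 genes of the 47729 genes in the tables. Family 1 held 3 of them, family 2 held 48, family 3 held 7 and family 4 held 17. A further 25 symbols of these families fell outside the rule, of which 18 were marked as pseudogenes and 1 as an antisense transcript, and Cyp4a12a and Cyp4a12b were left out because their symbols end in a letter. RNA-seq had been made from whole kidneys of mice on postnatal day 8. The knockout group held 4 libraries from Six2Cre+KCTD1fl/fl mice, labelled as having lost Kctd1 in the nephron, and the wildtype group held 4 libraries from control littermates. Six2-driven Cre acts in the progenitors of the nephron epithelium and spares collecting duct, stroma and vessels, so a whole kidney also holds cells in which Kctd1 was not targeted. The alleles that the littermates carry are not given in the sources used here.

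P450 enzymes hold a heme group, take electrons from the reductase Por, and insert 1 oxygen atom into their substrate. In the kidney the subfamilies 2C and 2J are known for turning arachidonic acid into epoxides, and subfamilies 4A and 4F for hydroxylating fatty acids at the end of the chain, including the formation of the vasoactive lipid 20-HETE. Family 1 is the textbook target of the aryl hydrocarbon receptor, the 4A genes are targets of the fatty acid receptor PPAR alpha, and most of families 2 and 3 are best known from the liver. Much of the kidney's P450 lies in the proximal tubule.

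Kctd1, the targeted gene, served as a check of the labels. In CPM, counts scaled to library size with TMM factors, the knockout libraries 1 to 4 stood at 22.4, 25.4, 25.8 and 23.5, and the wildtype libraries 1 to 4 at 32.1, 28.9, 32.6 and 32.6. The groups did not overlap and the knockout mean was 77.0% of the wildtype mean. Totals ran from 14457760 to 20741076 counts per library, and 3 counts, the limit that a count of 0 allows, were worth 0.145 to 0.208 CPM. These limits cover counting error only. Whether the 4 libraries of a group stem from 4 animals is not stated, so p-values reflect only the spread from library to library, which may be technical. In whole tissue, fewer cells of a type and less RNA per cell cannot be told apart. Knockout 1 stood apart by liver transcripts, with 504 counts of Alb against 2 to 28 in the other libraries. Xist was abundant (10000 counts or more) in knockout 2 and wildtype 3, with 81994 and 101295 counts, and had 4 to 151 counts in the other libraries. TPM values, which are scaled for gene length, were distorted by 5 short or ribosomal rows that were chosen after their values were seen: they took 28.7% of TPM in knockout 2, 12.1% in knockout 1 and 2.95% to 6.74% elsewhere. Levels between genes are therefore given in TPM, and genotypes are compared in CPM.

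Sequences are shown where they bear on how the counts can be read. Each of the following is a stretch of 63 coding bases, plus strand of the transcript, around the codon of the heme-binding cysteine, which is in capitals. They are shown because the 4A genes lie side by side on chromosome 4, and Cyp4a10, Cyp4a31 and Cyp4a32 share much of their sequence. The 2J stretches shown differ more from that of Cyp4a10 than the stretch of Cyp4a14 does. The sequences come from GENCODE M21 transcripts on GRCm38.
Cyp4a10: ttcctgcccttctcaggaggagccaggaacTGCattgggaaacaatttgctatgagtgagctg
Cyp4a14: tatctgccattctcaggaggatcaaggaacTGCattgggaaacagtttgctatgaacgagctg
Cyp2j13: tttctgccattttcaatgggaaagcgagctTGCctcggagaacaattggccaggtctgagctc
Cyp2j5: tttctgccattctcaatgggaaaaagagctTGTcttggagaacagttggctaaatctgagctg
The stretches of Cyp4a31 and Cyp4a32 were identical to that of Cyp4a10. Cyp4a14 differed from Cyp4a10 at 8 of the 63 bases, Cyp2j5 at 22 and Cyp2j13 at 24. Of all runs of 31 bases in the transcripts, 45.5% of those in Cyp4a10 and 33.0% of those in Cyp4a31 were also found in another gene, mostly Cyp4a32. These are shares of runs, not of reads. A read that lies wholly in sequence shared with another gene cannot be assigned to 1 gene by its sequence alone. The split among Cyp4a10, Cyp4a31 and Cyp4a32 is therefore uncertain, to an extent that was not measured. The share of runs also found in another gene was 2.07% for Cyp4a14, 2.05% for Cyp2j13 and 3.11% for Cyp2j5. Outside these subfamilies it reached 38.9% for Cyp4f16, mostly in Cyp4f37, 36.0% for Cyp2d12 and 16.3% for Cyp2d26. The values of those genes carry the same limit.

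The promoters of the pair of 2J genes whose groups did not overlap are shown as examples. Cyp2d26 and Cyp2e1 had such groups too, but their promoters are not shown. Each window holds 300 bases, 250 before the RefSeq start and 50 from it on (RefSeq, GRCm38.p6). Cyp2j13 is read from the minus strand of chr4:96077491-96077790 and Cyp2j5 from the minus strand of chr4:96664070-96664369. Capitals mark matches to 4 motifs searched on both strands: AGGTCA (reverse TGACCT), a core bound by nuclear receptors, GCGTG (reverse CACGC), the core of the dioxin response element, TATAAA (reverse TTTATA), the TATA box, and the PPAR direct repeat, which is the first motif repeated after a spacer of 1 base and so contains it.
Cyp2j13: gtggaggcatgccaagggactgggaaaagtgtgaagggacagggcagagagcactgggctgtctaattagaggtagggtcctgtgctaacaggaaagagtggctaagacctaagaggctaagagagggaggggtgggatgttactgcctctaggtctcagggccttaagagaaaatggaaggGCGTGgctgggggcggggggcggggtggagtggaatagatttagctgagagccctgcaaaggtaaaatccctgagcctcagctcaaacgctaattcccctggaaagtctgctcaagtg
Cyp2j5: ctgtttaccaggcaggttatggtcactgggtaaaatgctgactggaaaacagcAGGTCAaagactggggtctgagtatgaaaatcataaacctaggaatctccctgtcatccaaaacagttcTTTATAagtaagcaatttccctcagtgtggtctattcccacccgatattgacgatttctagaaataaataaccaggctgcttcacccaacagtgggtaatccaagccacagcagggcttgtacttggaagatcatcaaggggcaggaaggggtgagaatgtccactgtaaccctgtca
Cyp2j13 held GCGTG at window position 183, counted from the first base shown. Cyp2j5 held AGGTCA at position 54 and the reverse TATA box at position 123. Promoter entries were matched for 62 of the 75 genes. Among the 15 tested genes with an entry, AGGTCA was found in 1, GCGTG in 6, TATAAA in 3 and the direct repeat in 0. Over all 32851 promoters of the same length the shares were 16.3%, 32.4%, 13.6% and 0.0396%. A match is a description of the letters in the window.

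The young kidney drew its P450 transcripts from few genes. Of the 75 genes, 22 had a mean of 1 CPM or more over the 8 libraries: 1 of family 1, 11 of family 2, 1 of family 3 and 9 of family 4. Cyp2j5, an arachidonic acid epoxygenase of the proximal tubule, was the highest with 57.6 ± 7.49 TPM (SD, n = 8 libraries) and took 22.7% of the summed TPM of the 75 genes. The fatty acid omega-hydroxylases Cyp4a14 and Cyp4a10 followed with 37.3 ± 13.2 and 33.2 ± 8.12 TPM. Cyp2d26, of a subfamily known for drug oxidation, stood at 33.2 ± 5.41 TPM and Cyp4a31 at 20.6 ± 4.95 TPM. These 5 genes made up 71.0% of the summed TPM and the first 10 made up 89.9%. Neighbours from Cyp4a14 to Cyp2d26 lay within their spread of each other, as did Cyp2s1 and Cyp4f13 with 13.2 ± 1.49 and 12.6 ± 1.89 TPM.

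The remaining genes were lower. Cyp4f16 measured 7.94 TPM, Cyp2j6 7.14 TPM, Cyp2d22 6.53 TPM and Cyp1b1 4.51 TPM. Cyp2j9, Cyp2j11, Cyp4f17 and Cyp4b1 lay between 3.72 and 2.59 TPM, and Cyp2u1, Cyp2e1 and Cyp4v3 between 1.46 and 1.03 TPM. Cyp3a13, Cyp2j13, Cyp4x1 and Cyp2c44 stood at 0.817, 0.706, 0.572 and 0.518 TPM. The same 5 genes were the highest when ranked by CPM.

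**Figure D1:**
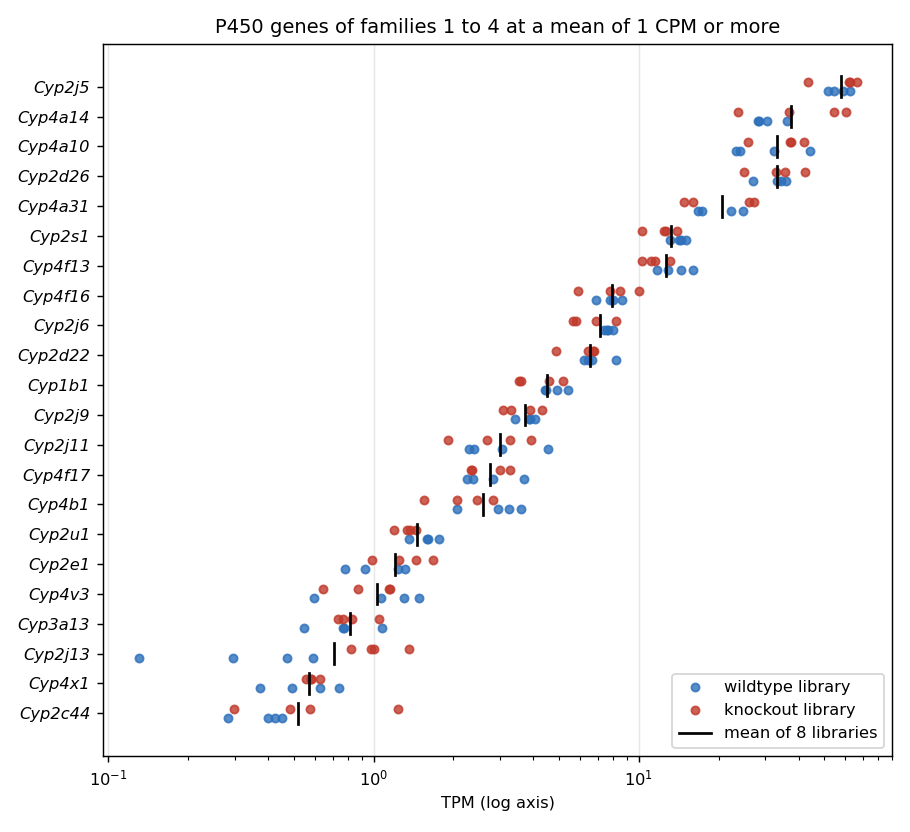
TPM (log axis) of the 22 P450 genes with a mean of 1 CPM or more; each point is 1 library, blue for wildtype and red for knockout, and black bars mark the mean of the 8 libraries. Cyp2j5 lies at the top with a mean of 57.6 TPM and Cyp2c44 at the bottom with 0.518 TPM.

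By subfamily, 4A held 35.4% of the members' summed TPM on average over the libraries, with a range of 30.9% to 42.6%. The next was 2J with 28.6% and a range of 24.8% to 30.97%, then 2D with 15.8% and 4F with 9.40%. Family 1 as a whole held 1.81% and family 3 held 0.340%. The highest share of 4A and the lowest of 2J both belonged to knockout 1, as the plot of subfamily shares shows.

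**Figure D2:**
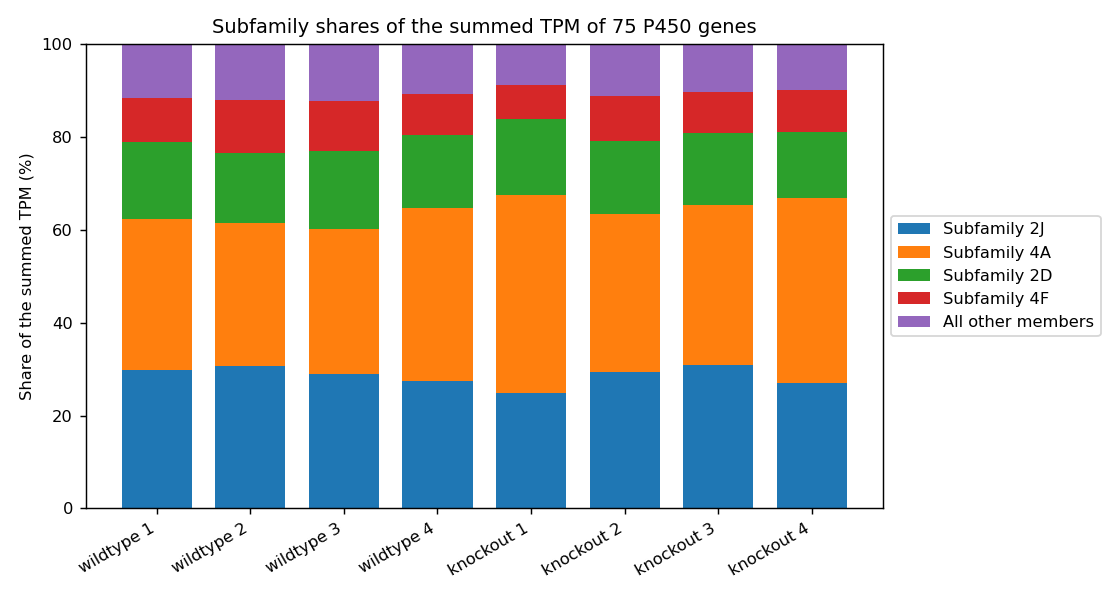
Share of the summed TPM of the 75 P450 genes (%) taken by subfamilies 2J, 4A, 2D and 4F and by all other members, 1 bar per library. Subfamily 4A ranges from 30.9% to 42.6% and 2J from 24.8% to 30.97%.

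The comparison of genotypes asked whether P450 transcripts differ between kidneys with and without nephron deletion of Kctd1. A filter on low counts kept 24 of the 75 genes, 22 of them at 1 CPM or more, so no statement covers all members. The test was the quasi-likelihood test of edgeR, with p-values adjusted by Benjamini-Hochberg over all 18548 tested genes and a threshold of 0.05. Of the 24 genes, 0 passed, where 0.0809% of all tested genes did (0.0323% higher and 0.0485% lower in knockout), and the smallest adjusted p was 0.261. DESeq2 passed 1 of the 24, Cyp2j13, where it passed 0.771% of all tested genes. At an unadjusted p under 0.05 in edgeR, 3 members were higher in knockout (Cyp2j13, Cyp2j5 and Cyp4a14), against 3.11% of all tested genes, and 0 were lower, against 3.08% (6.18% in either direction). DESeq2 had 5 members at that unadjusted p, against 6.56% of all tested genes. The groups did not overlap, with knockout higher, for 4 of the 24 (Cyp2j13, Cyp2j5, Cyp2d26 and Cyp2e1), against 1.97% of all tested genes. The reverse held for 0 of the 24, against 2.06% (4.03% in either direction).

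Among the 22 genes at 1 CPM or more, 14 had a positive and 8 a negative log2 fold change of knockout over wildtype, with a median of 0.14 and a range of -0.29 to 1.62. Over all tested genes the median was 0.001 and 50.3% were positive, and 49.9% were positive among those at 1 CPM or more. On log2(TPM + 1) values the members' median was 0.003, while that of all genes was -0.11, so that the members lay 0.11 above it. There 15 of the 22 members lay above the median of all genes. The plot of fold changes with their standard errors shows most members within a narrow band around 0 and Cyp2j13 far to the right.

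**Figure D3:**
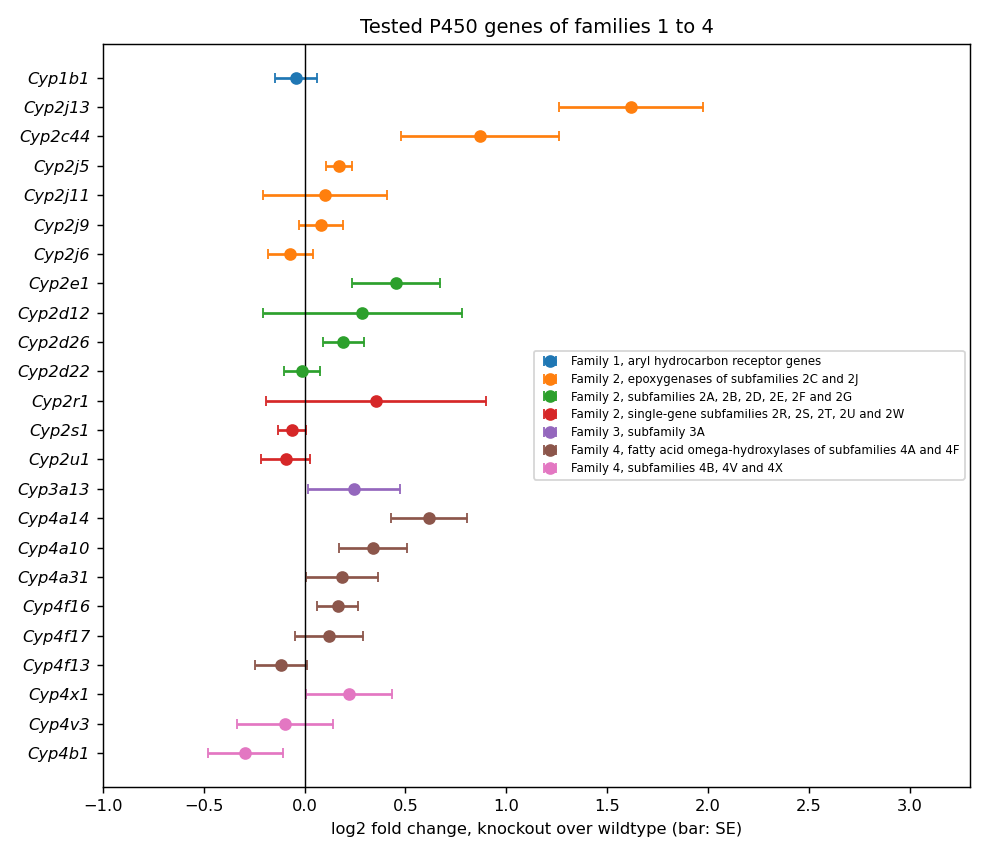
log2 fold change of knockout over wildtype with its standard error for the 24 tested P450 genes, coloured by role. Cyp2j13 stands at 1.62 and Cyp4b1 at -0.29, the extremes among the genes at 1 CPM or more.

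The epoxygenases of subfamilies 2C and 2J held both the largest difference and the most abundant member. Cyp2j13, a 2J enzyme on chromosome 4 from 96027534 to 96077546 (GRCm38, minus strand), stood at 4.84, 5.34, 6.83 and 4.68 CPM in the 4 knockout libraries. In the wildtype libraries it stood at 2.80, 0.668, 1.42 and 2.12 CPM. All 4 knockout libraries lay above all 4 wildtype libraries, with a clear gap. Knockout averaged 5.42 ± 0.980 CPM and wildtype 1.75 ± 0.915 CPM (SD, n = 4 each). The difference was 3.07-fold, a log2 fold change of 1.62 ± 0.36 (SE). The adjusted p was 0.261 in edgeR and 0.0029 in DESeq2. The call therefore depends on the tool, and the gene rests on 495 counts over the 8 libraries. It overlaps the pseudogene Hspe1-ps6 on the same strand.

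Cyp2j5, on chromosome 4 from 96628773 to 96664154 (minus strand), measured 269, 247, 273 and 272 CPM in knockout and 242, 236, 217 and 246 CPM in wildtype. The groups did not overlap, but knockout 2 at 247.23 CPM lay just above the highest wildtype library at 245.95 CPM. The log2 fold change was 0.17 ± 0.07 (SE), with an adjusted p of 0.700 in edgeR. Cyp2c44, a kidney epoxygenase of subfamily 2C, measured 1.07, 2.72, 1.72 and 4.13 CPM in knockout and 1.52, 1.002, 1.47 and 1.30 CPM in wildtype. Its groups overlapped, and knockout 4 alone carried the largest value. The log2 fold change was 0.87 ± 0.39 (SE; edgeR adjusted p = 0.808) and 0.47 without knockout 4.

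The other tested 2J members had log2 fold changes of at most 0.10. Among these, Cyp2j11 varied most within a genotype, with 6.54, 14.8, 13.7 and 8.76 CPM in knockout and 7.55, 10.6, 15.1 and 7.50 CPM in wildtype. High and low libraries stood in both groups, and its log2 fold change of 0.10 ± 0.31 (SE; edgeR adjusted p = 0.982) turned negative in 6 of 17 alternative settings. Cyp2j6 and Cyp2j9 had log2 fold changes of -0.07 and 0.08. Cyp2j7 was the untested member with the most counts, 78 over the 8 libraries, and measured 0.345 to 0.445 CPM in knockout and 0.468 to 0.913 CPM in wildtype, without overlap. Summed over the subfamily, 2J measured 334, 335, 366 and 346 CPM in knockout and 318, 314, 303 and 317 CPM in wildtype, without overlap and led by Cyp2j5.

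**Figure D4:**
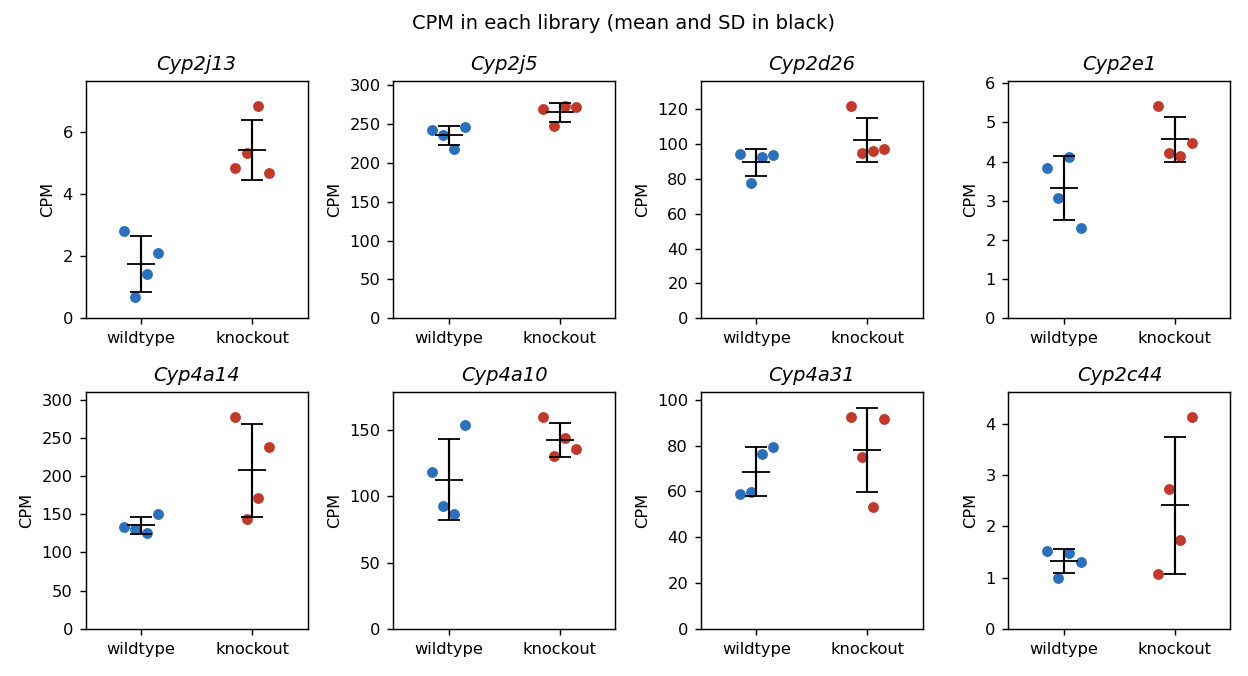
CPM in each library for 8 P450 genes, wildtype in blue and knockout in red, with the mean and SD in black and every axis starting at 0. The 4 knockout libraries of Cyp2j13 lie at 4.68 to 6.83 CPM, above the wildtype libraries at 0.668 to 2.80 CPM, whereas those of Cyp4a10 and Cyp4a31 overlap with wildtype.

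Subfamilies 2D and 2E had a pair of members whose groups did not overlap, each by a small margin. Cyp2d26, on chromosome 15 from 82790101 to 82794294 (minus strand), measured 122, 94.7, 96.2 and 97.3 CPM in knockout and 94.2, 77.9, 92.7 and 93.7 CPM in wildtype. Apart from a high knockout 1 and a low wildtype 2, the libraries lay close together. The log2 fold change was 0.19 ± 0.10 (SE; edgeR adjusted p = 0.841), and 0.10 without knockout 1. Cyp2e1, the ethanol-oxidising enzyme, on chromosome 7 from 140763739 to 140774987 (plus strand), measured 5.41, 4.23, 4.14 and 4.48 CPM in knockout and 3.84, 3.07, 4.13 and 2.31 CPM in wildtype. The lowest knockout and the highest wildtype library nearly met. Its log2 fold change was 0.45 ± 0.22 (SE; edgeR adjusted p = 0.833), 0.36 without knockout 1 and 0.31 without wildtype 4. Cyp2d22 differed by -0.01 on the log2 scale.

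Among the tested members, knockout 1 was the highest library for Cyp2d26, Cyp2e1, Cyp4a14, Cyp4a10 and Cyp4a31. It was the lowest for Cyp1b1, Cyp2s1, Cyp2j6, Cyp2j9, Cyp2j11 and Cyp4f13. It was also the library with liver transcripts. Cyp3a11, a major P450 of the liver, had 13 counts in it and 0 or 1 in every other library. A further 10 members, among them Cyp1a2, Cyp2c50 and Cyp3a25, had counts in knockout 1 alone, 14 in all. Hepatocyte markers summed to 170 to 291 CPM in knockout and 156 to 190 CPM in wildtype. Of 10 listed, 6 were tested and none was at 0 in every library. Alb and Ttr were higher at an unadjusted p under 0.05, against 3.11% of all tested genes, while Apoa2, Fgb, Serpina1a and Trf had log2 fold changes of -0.27 to 0.06. Ttr made up most of the knockout sum, with 167, 107, 171 and 194 CPM in knockout 1 to 4, so that its level was high outside knockout 1 too. The part of these transcripts in the values of knockout 1 was not tested.

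The 3 tested omega-hydroxylases of subfamily 4A, of 5 in all, had positive fold changes, and their libraries were widely spread within 1 genotype or both. Of the untested members, Cyp4a32 had 34 counts over the 8 libraries, with 0 to 0.222 CPM in knockout and 0.200 to 0.491 CPM in wildtype, and Cyp4a29 had 1. Cyp4a14, on chromosome 4 from 115486200 to 115496142 (minus strand), measured 277, 144, 172 and 238 CPM in knockout and 134, 131, 126 and 151 CPM in wildtype. Wildtype libraries were close together, and knockout ranged from the wildtype level in knockout 2 to the highest value in knockout 1. Knockout averaged 208 ± 60.9 CPM and wildtype 135 ± 10.8 CPM (SD, n = 4 each). The log2 fold change was 0.62 ± 0.19 (SE), with an adjusted p of 0.570 in edgeR. It was 0.45 without knockout 1.

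Cyp4a10, on chromosome 4 from 115518264 to 115533649 (plus strand), measured 160, 131, 144 and 135 CPM in knockout and 118, 92.3, 86.5 and 153 CPM in wildtype. Wildtype 4 alone reached into the knockout range. The log2 fold change was 0.34 ± 0.17 (SE; edgeR adjusted p = 0.837). Cyp4a31, on chromosome 4 from 115563649 to 115579015 (plus strand), measured 92.4, 74.9, 53.4 and 91.5 CPM in knockout and 58.9, 59.7, 76.4 and 79.4 CPM in wildtype, with full overlap and a log2 fold change of 0.19 ± 0.18 (SE; edgeR adjusted p = 0.939). Because parts of their transcripts are shared in sequence, Cyp4a10, Cyp4a31 and Cyp4a32 were also summed. The sum was 252, 206, 197 and 227 CPM in knockout and 177, 152, 163 and 233 CPM in wildtype, where wildtype 4 again lay within the knockout range.

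Subfamily 4F, known for hydroxylating leukotrienes and other fatty acids, had overlapping groups for all 3 tested genes. Cyp4f13, Cyp4f16 and Cyp4f17 had log2 fold changes of -0.12, 0.16 and 0.12. Cyp4b1, which oxidises medium-chain fatty acids and foreign compounds, measured 5.47, 5.45, 6.62 and 7.17 CPM in knockout and 8.28, 5.55, 9.28 and 7.16 CPM in wildtype. Its groups overlapped, and its log2 fold change of -0.29 ± 0.19 (SE; edgeR adjusted p = 0.895) was the lowest among the 22 genes. It was -0.18 without wildtype 3, -0.42 without wildtype 2 and -0.12 without the libraries with abundant Xist. Cyp4v3 and Cyp4x1 differed by -0.10 and 0.22 on the log2 scale. Summed over family 4, knockout measured 598, 424, 443 and 545 CPM and wildtype 382, 353, 370 and 458 CPM, with overlap. The sum over family 2 was 576, 556, 583 and 565 CPM in knockout and 532, 519, 511 and 537 CPM in wildtype. Those groups did not overlap in CPM, but did in TPM, where knockout 2 was the lowest.

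The tested members outside these groups had overlapping groups of libraries. Cyp1b1, a steroid- and retinoid-oxidising enzyme of family 1, measured 36.2, 47.2, 46.8 and 49.6 CPM in knockout and 47.2, 45.2, 43.3 and 49.4 CPM in wildtype. Only knockout 1 stood lower, and the log2 fold change was -0.04 ± 0.10 (SE; edgeR adjusted p = 0.979). Cyp1a1, the classic inducible gene of the aryl hydrocarbon receptor, had 1 to 9 counts per library and was not tested. Cyp2s1, an enzyme of epithelia, measured 63.3, 69.2, 65.6 and 67.0 CPM in knockout and 68.7, 73.8, 64.8 and 69.9 CPM in wildtype. The groups overlapped with a log2 fold change of -0.06 ± 0.07 (SE; edgeR adjusted p = 0.942), and -0.03 without wildtype 2. Cyp2u1 differed by -0.09, and Cyp2r1, a vitamin D hydroxylase at 0.592 CPM, by 0.35 on the log2 scale. Cyp3a13, the one tested gene of family 3, measured 4.28, 6.12, 4.14 and 5.53 CPM in knockout and 4.14, 3.07, 5.80 and 3.89 CPM in wildtype, with a log2 fold change of 0.24 ± 0.23 (SE; edgeR adjusted p = 0.939). Its values overlapped as well, and the log2 fold change was 0.12 without wildtype 2, 0.13 without knockout 2 and 0.44 without wildtype 3.

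Of the 53 members below 1 CPM, 8 had 0 counts in all 8 libraries: Cyp2b10, Cyp2c38, Cyp2c65, Cyp2c66, Cyp2c67, Cyp2c68, Cyp2g1 and Cyp3a59. A further 26 had 1 to 10 counts over the 8 libraries and 19 had more than 10. Of the 53, Cyp2r1 and Cyp2d12 were tested, and the other 51 were left out of the test by the filter. With no filter, edgeR gave Cyp2b23 and Cyp3a11 an unadjusted p under 0.05, both higher in knockout, and 0 members passed the threshold. In that setting 5.02% of all 33156 genes had such a p, in either direction. Of the 15 counts of Cyp3a11, 13 lay in knockout 1, the library with liver transcripts.

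The partners of the P450 enzymes were read from lists of genes, none of which had a member past the edgeR threshold. The median of each list stands against the 0.001 of all tested genes. All 12 genes of electron supply and of heme synthesis and breakdown were tested, with a median log2 fold change of -0.03. At an unadjusted p under 0.05, Hmox1, which breaks down heme, was higher in knockout by 0.40 and Hmox2 lower by 0.21. The shares of all tested genes at that p were 3.11% higher and 3.08% lower. Hmox1 had overlapping groups, with 56.9 CPM in knockout 1 and 35.8 to 40.4 CPM in the other knockout libraries. Por itself differed by 0.05. All 14 regulators were tested, with a median of 0.06 and none at that unadjusted p. Hnf4a, a driver of proximal tubule and liver genes, had 0.16, and Ppara and Ahr, named for their role, had 0.24 and 0.09.

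PPAR alpha targets outside the P450 family had 13 tested genes of 14, a median of 0.06, and 3 that were higher at an unadjusted p under 0.05 with 0 lower, against 3.11% and 3.08% of all tested genes. Acaa1b, a peroxisomal thiolase, measured 197, 151, 180 and 180 CPM in knockout and 140, 141, 146 and 141 CPM in wildtype, with no overlap. Its log2 fold change was 0.32 ± 0.08 (SE; edgeR adjusted p = 0.382). Pex11a, which divides peroxisomes, had 0.32 ± 0.10 (SE; edgeR adjusted p = 0.587). The 4 tested targets of the aryl hydrocarbon receptor had a median of 0.28, with none at an unadjusted p under 0.05.

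Release and other oxidation of arachidonic acid had 12 tested genes of 13 and a median of 0.002. Pla2g6, a phospholipase that frees fatty acids, was 0.37 ± 0.13 (SE; edgeR adjusted p = 0.658) with no overlap. Epoxide hydrolases and eicosanoid receptors had 8 tested genes of 10 and a median of -0.02. Gpr39, a receptor, was the one gene of the list at an unadjusted p under 0.05, against 6.18% of all tested genes in either direction. It measured 4.21 to 4.84 CPM in knockout and 1.87 to 3.75 CPM in wildtype, without overlap. Its log2 fold change was 0.55 ± 0.23 (SE; edgeR adjusted p = 0.753). Ephx2, which opens the epoxides made by 2C and 2J enzymes, had 0.07. Second-phase conjugation had 18 tested genes of 20, a median of 0.15 and 3 higher at an unadjusted p under 0.05, against 3.11% of all tested genes, among them Gstm1 at 0.23 ± 0.07 (SE; edgeR adjusted p = 0.553). A list of 24 P450 symbols outside the rule was mostly of other families but held Cyp4a12a, Cyp4a12b and Cyp2ab1. Of the 24, 22 were matched to a gene in these data, and Cyp2ac1 and Cyp5a1 were not. Of the 22 matched genes, 11 were tested, with a median of -0.03. Cyp27b1, which activates vitamin D, measured 15.7, 20.5, 12.1 and 10.8 CPM in knockout and 10.4, 5.88, 6.19 and 11.5 CPM in wildtype, with overlap and a log2 fold change of 0.79 ± 0.27 (SE; edgeR adjusted p = 0.645).

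**Figure D5:**
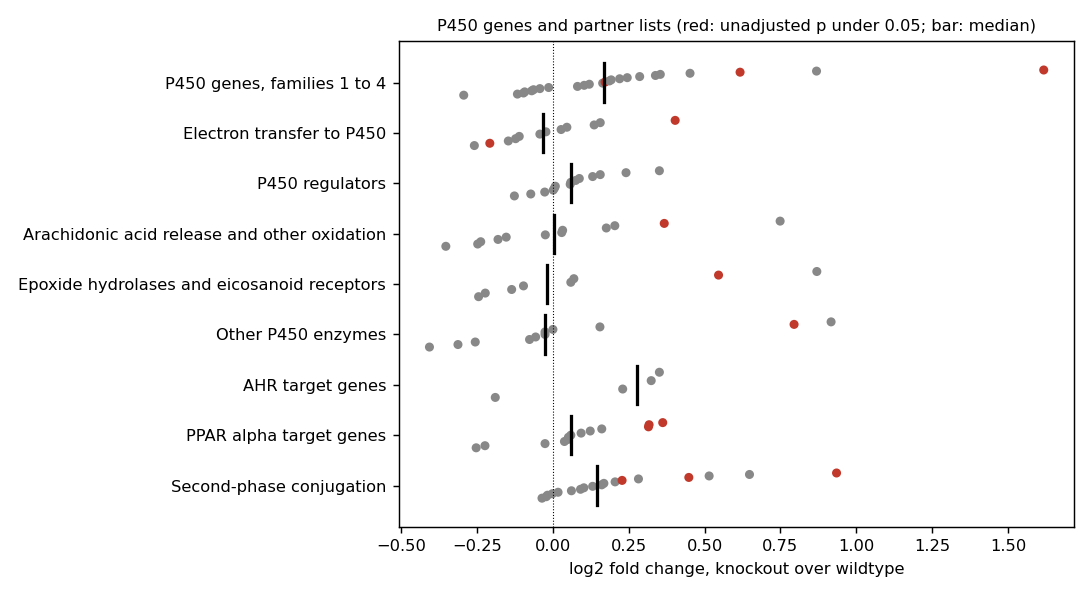
log2 fold change of knockout over wildtype for the tested P450 genes of families 1 to 4 and for the lists of partner genes; each point is a gene, red where the unadjusted edgeR p was under 0.05, and black bars mark medians. The medians lie between -0.03 and 0.28.

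Marker genes of kidney segments and other cell types were read beside these values. Of 7 segment markers, all tested, 1 passed the threshold, where 0.0809% of all tested genes did. This was Slc12a3, lower in knockout with a log2 fold change of -0.91 (edgeR adjusted p = 0.0063). At an unadjusted p under 0.05, 1 segment marker was higher and 3 were lower, against 3.11% and 3.08% of all tested genes. Aqp2 measured 478 CPM in knockout 1 and 149 to 202 CPM in the other libraries. Early and middle proximal tubule markers, all 12 tested, summed to 7217 to 7827 CPM in knockout and 7523 to 8299 CPM in wildtype, with 0 past the threshold. Of these, 2 were higher (Slc22a6 and Slc22a8) and 2 lower (Slc5a2 and Gatm) at an unadjusted p under 0.05, against the same 3.11% and 3.08%. Late proximal tubule markers, 9 of 9 tested, summed to 608 to 778 CPM in knockout and 538 to 705 CPM in wildtype. Their log2 fold changes ran from -0.32 to 1.37, with 1 higher and 1 lower at that unadjusted p and 0 past the threshold. Endothelial markers summed to 927 to 1042 CPM in knockout and 1046 to 1120 CPM in wildtype, and macrophage markers to 111 to 119 and 123 to 129 CPM, both without overlap. Adrenal markers summed to at most 7.01 CPM and fat cell markers to 54.3 to 115 CPM, with overlap. No listed marker of these types was at 0 in every library. The part of these cell types in the P450 values was not tested.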

How the data were processed

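RNA-seq libraries were made from total RNA with a strand-specific kit, per the labels' protocols. Per the submitters' processing notes, Salmon (no version), DESeq2 1.14.1 and the build mm10 were used, whereas no source used here gives the annotation release. The files the authors deposited hold estimated counts per gene, rounded to whole numbers, and TPM per gene with identifiers and symbols. The count table carries no names, so row order linked its 47729 rows to the distinct identifiers beside TPM. As a check on 13251 genes with 50 counts or more in each library, the log2 count-to-TPM ratio varied between libraries with a median SD of 0.00074, and of 0.309 after a shift by 1 row.

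Members, role groups and gene lists were chosen with earlier results of these data known. Counts were filtered with filterByExpr, scaled with TMM factors and tested with edgeR's quasi-likelihood test (edgeR 4.0.16, R 4.3.3, two-sided, genotype alone, Benjamini-Hochberg over 18548 genes). The biological coefficient of variation was 20.7%. Each SE of a log2 fold change was derived from the edgeR test, as the absolute fold change over the square root of its F statistic. Full values are given for members at an unadjusted p under 0.05, members whose groups do not overlap, the highest by TPM in each role group and the 3 most variable within a genotype. Other members shown in the plots or by library were named for their role. From each list, at most 2 genes with the smallest p are named, beside those named for their role. Alternatives were RLE and upper-quartile scaling, other filters, DESeq2 1.42.0, limma 3.58.1 on log2(TPM + 1) and log2(TPM + 0.1), a replicate block, leaving out each library and leaving out the libraries with abundant Xist reads (10000 counts or more). The edgeR script was tested on simulated data. Positions and transcripts are from GENCODE M21 on GRCm38, the assembly that mm10 denotes, and promoters from RefSeq.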

Additional observations from a re-analysis of the deposited data

Results flagged for a closer look

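In 44 groups of 4 libraries (22 members in 2 genotypes), 4 held a library whose distance to its nearest neighbour took an unusually large share of the group's range (Dixon's criterion), where about 1 in 20 groups, or 2.2, would by chance. Cyp2j5 was low in knockout 2, at 247.23 CPM. Cyp2d26 was high in knockout 1, at 121.65 CPM, and low in wildtype 2, at 77.914 CPM. Cyp2d22 was high in knockout 3, at 35.393 CPM, in a group that spanned little.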

How the results depend on the processing

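The edgeR test passed 15 genes in all, DESeq2 143, edgeR with no filter 27, limma on log2(TPM + 1) and on log2(TPM + 0.1) 6 each, and edgeR without the libraries with abundant Xist reads 3. Leaving out each library in turn gave 10 to 52, the highest without wildtype 4 and 29 without knockout 3. The count of members past the threshold was 0 in every setting except DESeq2, with 1, and 0 to 0 when libraries were left out. Members at an unadjusted p under 0.05 numbered 3, and 5 with DESeq2, 6 with no filter, 1 with limma on log2(TPM + 1), 1 on log2(TPM + 0.1) and 2 to 5 when libraries were left out, with 5 without knockout 3. The shares of all tested genes at that p were 6.18%, 6.56%, 5.02%, 5.99% and 5.93%, and 5.21% to 8.33% when libraries were left out, with 8.33% without knockout 3. The members' median of 0.142 became 0.003 with limma on log2(TPM + 1) and 0.002 on log2(TPM + 0.1), where the median of all genes was -0.11 and -0.14, and was 0.10 to 0.165 when libraries were left out. The sign of Cyp2j11 turned with limma on log2(TPM + 0.1) (-0.051) and log2(TPM + 1) (-0.039) and without 4 single libraries (-0.079 to -0.017), and that of Cyp1b1 without knockout 1 (0.046). Leaving out single libraries moved Cyp2j11 between -0.079 and 0.361 and Cyp1b1 between -0.094 and 0.046. The cause was not tested. Cyp2j13 stayed positive in 17 settings, at 0.578 to 1.921, with adjusted p from 0.0029 to 0.696, Cyp2j5 at 0.028 to 0.203 and Cyp4a14 at 0.418 to 0.756. Same-numbered libraries deviated with correlations of -0.073 to 0.0485, and differently numbered ones with -0.137 to 0.11. The numbers thus show no pairing, although correlations this weak cannot exclude one. The replicate block gave 10 genes past the threshold, 0 members past it, 4 at an unadjusted p under 0.05, a median of 0.15 and 1.72 for Cyp2j13. Depth limits the weakest members, with a floor of 0.145 to 0.208 CPM.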
